A study of Mus musculus with 16 samples.

Results

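The genes that encode the proteasome and its regulators were followed in mouse CD4+ T cells of 2 genotypes under 4 culture conditions. Members were all genes whose only platform symbol starts with Psm, a letter from a to g and a digit, which took in 49 of the 18193 genes named on the array. Each was read through 1 of its probe sets, the one with the highest mean log2 intensity over the 16 arrays, out of 103 probe sets in all. Of these genes, 47 reached the level asked for testing, log2 6 on at least 2 arrays, as did 13007 genes of the array. The remaining members were Psma8, an alpha subunit known from testis, with a highest log2 intensity of 5.25, and Psmb11, the thymus-specific beta subunit, with a highest of 5.88. The members comprised 8 alpha subunits and 8 constitutive beta subunits of the 20S core, 6 ATPases and 11 other subunits of the 19S regulatory particle, 7 assembly chaperones, the regulators Psme3, Psme4 and Psmf1, and 4 immunoproteasome genes. Psmb8, Psmb9, Psmb10 and Psme1 were therefore kept apart from 43 genes called constitutive here, 41 of them tested. Psme2, the partner of Psme1, shared its probe set with Psme2b and was given no value. The symbol rule also took in Psmc3ip, a cofactor of meiotic recombination, and Psme3ip1, neither of which is a proteasome subunit, and both are kept out of the counts of constitutive genes.

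The proteasome is the protease complex that degrades proteins tagged with ubiquitin. Its barrel-shaped 20S core is built from outer rings of alpha subunits and inner rings of beta subunits, of which Psmb6, Psmb7 and Psmb5 carry the caspase-like, trypsin-like and chymotrypsin-like sites, and chaperones such as Psmg1 to Psmg4 help to assemble it. The 19S particle binds ubiquitinated substrates and unfolds them with a ring of ATPases encoded by the Psmc genes. In cells exposed to interferon gamma the catalytic subunits are replaced by Psmb9, Psmb10 and Psmb8, and Psme1 with Psme2 forms an alternative cap, an assembly called the immunoproteasome that favours peptides suited to MHC class I presentation. Activated T cells enlarge and divide within days and are known to carry both forms.

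Naive CD4+ CD44- CD62L+ T cells had been sorted from mice and stimulated for 3 days through CD3 and CD28, in medium alone, with TGFb, with IL-6, or with IL-6 and TGFb together, the last being the mixture used to obtain Th17 cells. The labels give 10 ug/ml for IL-6 and 2.5 ug/ml for TGFb. Both genotypes carried floxed STAT3: in the cells called WT the alleles were left intact, and in those called STAT3-deficient they were recombined by a Cre recombinase driven by CD4 regulatory sequence. STAT3 is the transcription factor that relays the IL-6 signal. Every group held 2 arrays numbered 1 and 2, and the labels do not say how many animals a number stands for. Levels of the sex-linked Xist and Eif2s3y differed between the numbers, as given below, so the spread between the arrays of a group, on which the p-values rest, includes that difference. No source used here gives the age of the mice.

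The targeted gene was checked first. On the brightest Stat3 probe set the 8 WT arrays lay between log2 10.22 and 12.18 and the 8 STAT3-deficient arrays between 8.40 and 10.46, a difference of -2.60 averaged over conditions (SE 0.29, limma adjusted p = 0.0033). The ranges overlapped through STAT3-deficient TGFb replicate 2, at 10.46, and WT medium replicate 1, at 10.22. Within conditions the differences ran from -2.05 in medium to -3.10 under IL-6, and on this probe set only that under IL-6 passed with limma (adjusted p = 0.0224). A second Stat3 probe set passed under IL-6 (-3.57, limma adjusted p = 0.00622) and under IL-6 with TGFb (-2.67, limma adjusted p = 0.0172). The remaining Stat3 probe sets differed by -0.44 and -0.61 averaged over conditions and did not pass. Across all conditions the T cell markers were high, with a median of 11.89, while all measured B cell, CD8 T cell and erythroid markers stayed under log2 8 on every array. H2-Ab1, an MHC class II gene of antigen-presenting cells, lay between 6.17 and 11.32 with a median of 10.01. The other 4 dendritic cell markers stayed under log2 8 on every array. Klrd1, also made by NK cells, reached 12.85 with a median of 7.11, where the NK cell markers Ncr1 and Eomes reached 5.81 and 8.34. The summed level of the 5 dendritic cell markers, H2-Ab1 included, lay between log2 8.34 and 11.47 in WT and between 8.30 and 10.63 in STAT3-deficient cells. Their part in the results was not tested. The replicate number marked a difference of its own: for Actb, the 5' control probe set minus the 3' one, a measure of RNA quality, gave values between -0.50 and -0.11 on replicate 1 arrays and between -1.71 and -0.88 on the replicate 2 arrays, and Xist was high in replicate 1 and Eif2s3y in replicate 2. Within replicate 2 this Actb difference also separated the genotypes. The STAT3-deficient arrays there, between -1.71 and -1.22, all lay below the WT ones. The lowest value, -1.71, was that of STAT3-deficient IL-6 replicate 2. Within replicate 1 the genotypes overlapped. The WT IL-6 replicate 1 array had the lowest correlation with its closest partner of all 16 (r = 0.948), followed by STAT3-deficient TGFb replicate 1 (r = 0.957). The latter held Il17a at 9.55 where the other STAT3-deficient arrays lay between 6.04 and 6.51. On WT TGFb replicate 1 Foxp3 lay at 4.81, where the other arrays with TGFb alone had 7.96 to 9.99. The closest partner of that array was STAT3-deficient IL-6 with TGFb replicate 1 (r = 0.976). The same array was the closest partner of STAT3-deficient TGFb replicate 1, ahead of the other arrays with TGFb alone. Fits without these STAT3-deficient replicate 1 arrays, under TGFb and under IL-6 with TGFb, are given below. All labels were kept. The arrays measure RNA in whole cultures, so fewer cells of a kind and less RNA per cell cannot be told apart.

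The tested members moved to different extents between the groups. The largest ranges over the 8 group means among all members were those of Psme3, a nuclear activator of the core (1.55), the chaperone Psmg4 (1.51), Psmc3ip (1.38), and the immunoproteasome genes Psmb9 (1.29) and Psmb10 (1.19). The smallest range of a subunit was that of Psmd4, a ubiquitin receptor of the 19S particle, at 0.29. Psme3ip1 had the smallest of all, 0.22, and was called in none of the comparisons. The lowest array differed by part of the complex, as the map of the members over the arrays shows. The alpha ring was lowest, by its median, on STAT3-deficient TGFb replicate 1, and the beta ring on WT IL-6 replicate 1. Each rests on a single array, and these arrays had the lowest correlations with their closest partners (r = 0.957 and 0.948).

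**Figure D1:**
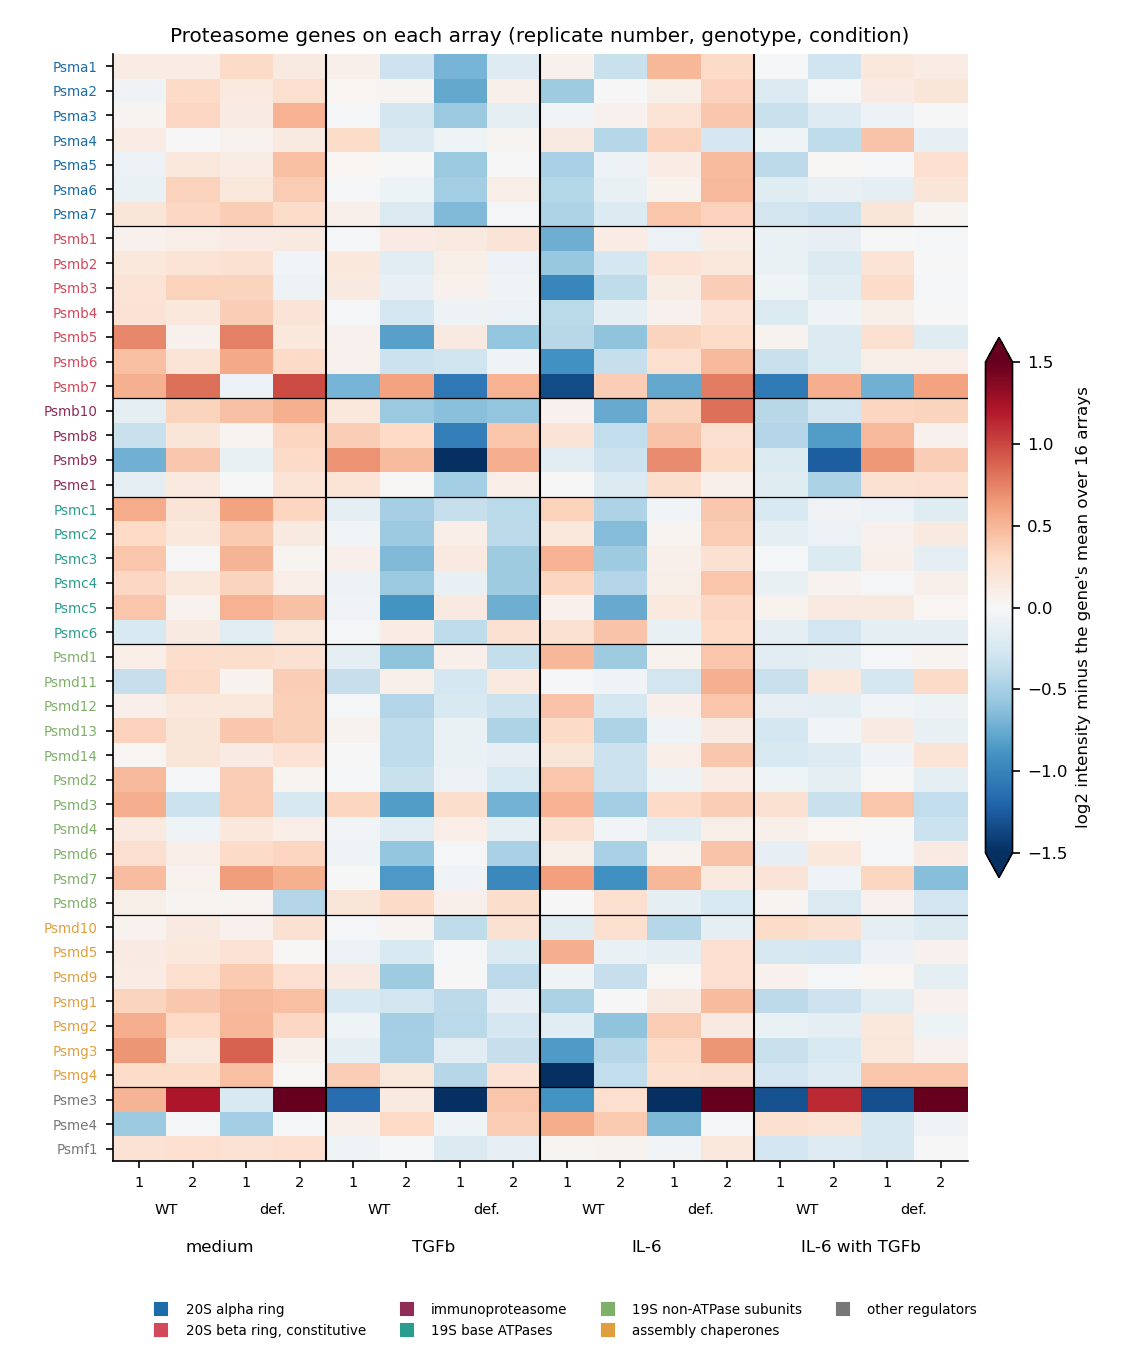
Log2 intensity of 45 tested proteasome genes (rows, coloured by part of the complex) on the 16 arrays (columns, by condition, genotype with def. for STAT3-deficient, and replicate number), each minus the gene's own mean over the 16 arrays. Red is above and blue below that mean; Psme3 and Psmb7 alternate with the replicate number, and Psmg4 is lowest on WT IL-6 replicate 1.

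The promoters of the genes on which the results turn are printed here for reference, from the RefSeq windows of assembly GRCm38.p6, which were matched for 41 members. Shown are Psmb6, Psmg1 and Psmc1, which passed the test in the comparisons below, and Psmb8 and Psmb9 of the immunoproteasome. Each is the 250 bases before the annotated start, 5′ to 3′ on the gene's strand, except Psmb9, for which it is the 225 bases between its start and that of Tap1, a peptide transporter transcribed the other way. Capitals mark matches on either strand to 4 motifs: TTCNNNGAA, the spacing known for STAT factors, which is its own reverse complement; TGANNNNGC, known for the NRF family of factors that drive proteasome genes; the core of the interferon-stimulated response element, GAAA and GAAA with 2 bases of any kind between; and CCAAT, bound by NF-Y.
Psmb6 (chr11:70525107-70525356, plus strand): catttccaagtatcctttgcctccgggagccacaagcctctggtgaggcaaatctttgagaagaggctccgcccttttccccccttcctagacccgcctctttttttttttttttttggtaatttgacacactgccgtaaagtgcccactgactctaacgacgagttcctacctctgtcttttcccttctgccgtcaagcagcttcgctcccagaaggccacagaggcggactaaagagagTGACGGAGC
Psmg1 (chr16:95990961-95991210, minus strand): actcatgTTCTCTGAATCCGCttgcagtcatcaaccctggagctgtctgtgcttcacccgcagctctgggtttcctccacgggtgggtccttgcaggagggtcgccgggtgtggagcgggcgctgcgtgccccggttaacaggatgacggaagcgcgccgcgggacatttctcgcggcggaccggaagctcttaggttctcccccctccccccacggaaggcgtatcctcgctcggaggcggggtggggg
Psmc1 (chr12:100109952-100110201, plus strand): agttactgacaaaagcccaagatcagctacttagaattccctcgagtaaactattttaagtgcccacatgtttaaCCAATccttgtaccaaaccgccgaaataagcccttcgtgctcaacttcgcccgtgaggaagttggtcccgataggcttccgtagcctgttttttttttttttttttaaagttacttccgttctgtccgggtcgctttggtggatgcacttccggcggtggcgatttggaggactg
Psmb8 (chr17:34197945-34198194, plus strand): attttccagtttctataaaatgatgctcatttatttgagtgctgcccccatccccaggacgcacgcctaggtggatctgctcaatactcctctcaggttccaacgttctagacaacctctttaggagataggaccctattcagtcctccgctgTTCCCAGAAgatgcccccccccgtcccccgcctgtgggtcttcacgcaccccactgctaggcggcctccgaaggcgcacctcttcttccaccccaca
Psmb9 (chr17:34187331-34187555, minus strand): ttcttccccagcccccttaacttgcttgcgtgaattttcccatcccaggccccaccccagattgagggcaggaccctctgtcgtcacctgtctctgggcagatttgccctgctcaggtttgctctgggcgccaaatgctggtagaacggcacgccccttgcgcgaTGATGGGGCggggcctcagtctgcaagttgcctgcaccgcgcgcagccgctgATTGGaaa

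TTCNNNGAA was present before 1 of the 35 constitutive genes with a window, Psmg1, where it overlaps a match to TGANNNNGC, and before 1 of the 4 immunoproteasome genes, Psmb8. It was present before 8.13% of all 27025 genes with such a window. TGANNNNGC was found before 14 of the 35 constitutive genes (40.0%) and 38.7% of all genes, CCAAT before 13 (37.1%) and 37.5%, and the interferon-stimulated element before 3 (8.57%) and 3.46%. Among the immunoproteasome genes TGANNNNGC and CCAAT were each found before 1 of 4, Psmb9, and the interferon-stimulated element before none.

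The first comparison asks which proteasome genes depend on STAT3 when IL-6 is the only added cytokine. In the constitutive beta ring all 7 tested subunits had higher means in STAT3-deficient than in WT cells, with a median difference of 0.60, and 5 of them reached an unadjusted p under 0.05. Psmb6, the caspase-like subunit, passed the test over all genes. Under IL-6 its log2 intensity was 10.57 and 11.13 in WT against 11.72 and 11.97 in STAT3-deficient cells, so the groups did not overlap, and both WT values were the lowest of the 16 arrays. The difference was 1.00 (SE 0.23, 2.00-fold higher, limma adjusted p = 0.0431, n = 2 against 2), 1.16 in replicate 1 and 0.84 in replicate 2. It was the only one of the 41 constitutive genes to pass, against 73 of 13007 genes called higher (0.561%) and 355 called lower (2.73%). At an unadjusted p under 0.05 there were 12 constitutive genes higher (7.42% of all genes), 5 of the beta ring, 4 chaperones and 3 of the alpha ring, and 1 lower (14.3%), Psme4. Among all 47 tested members Psmc3ip, the recombination cofactor, passed too, at 1.01 (SE 0.24, limma adjusted p = 0.0453).

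Other beta subunits did not pass on the probe sets used. Psmb3, a structural subunit, had values of 10.85 and 11.45 in WT against 11.94 and 12.21 in STAT3-deficient cells, a difference of 0.92 (SE 0.24, limma adjusted p = 0.0589). A second Psmb3 probe set, not the one used here, differed by 1.27 and passed (limma adjusted p = 0.0467). Psmb5, the chymotrypsin-like subunit, lay at 11.06 and 10.86 against 11.81 and 11.75, a difference of 0.82 (SE 0.35, limma adjusted p = 0.21). Psmb7, the trypsin-like subunit, followed the replicate number more than the genotype, with 10.46 and 12.17 in WT against 11.03 and 12.56 in STAT3-deficient cells, and its groups overlapped. Among the chaperones of the core, none passed either. Psmg3 lay at 9.20 and 9.62 in WT against 10.34 and 10.71 in STAT3-deficient cells (1.11, SE 0.29, limma adjusted p = 0.0609). Psmg4 lay at 7.88 and 9.33 against 9.95 and 9.97 (1.35, SE 0.38, limma adjusted p = 0.0736), the larger part of it from the low WT replicate 1 array. The plot of core subunits and chaperones shows Psmb6, Psmb3, Psmb5, Psmg3, Psmg1 and Psmg2 under all conditions, and leaves out Psmb7 and Psmg4. In the genes plotted the WT arrays lay below the STAT3-deficient ones under IL-6. That was the case for 17 of the 41 constitutive genes and for 2602 of all 13007 genes.

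**Figure D2:**
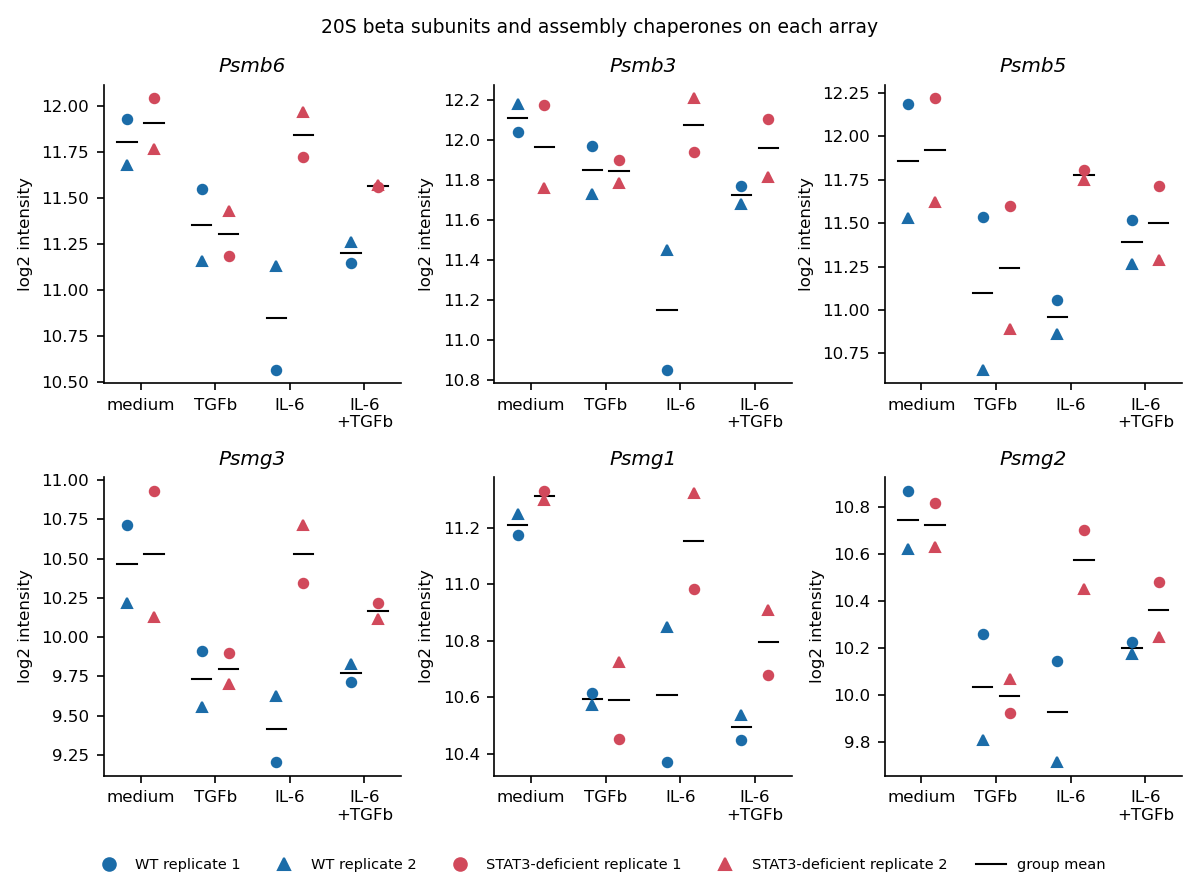
Log2 intensity (y axis) of Psmb6, Psmb3, Psmb5, Psmg3, Psmg1 and Psmg2 by condition (x axis) in WT (blue) and STAT3-deficient cells (red), with replicate 1 as circles, replicate 2 as triangles and the group mean as a line. Under IL-6 the WT arrays lie below the STAT3-deficient ones for all 6 genes, and under TGFb Psmg1 and Psmg2 lie below all medium arrays in both genotypes.

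With the replicate number as a block, 8 of the 41 constitutive genes were called in this comparison. Psma5, Psmb3, Psmb5, Psmb6, Psmg2, Psmg3 and Psmg4 were higher by 0.58 to 1.35, against 309 of all genes called higher in that fit (2.38%), and Psme4, the activator that caps the core without ATP, was lower by 0.83, against 1181 (9.08%). Psme4 had 11.16 and 11.00 in WT against 9.92 and 10.58 in STAT3-deficient cells. When the Actb 5' minus 3' difference was added to the block, 0 remained called. Psmb6 itself had limma adjusted p-values between 0.0195 and 0.154 when each of the 4 arrays was left out in turn, and it kept its call only without WT IL-6 replicate 2, where 3 constitutive genes were called.

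The difference under IL-6 ran unequally through the complex and through the replicate numbers. Of the 41 constitutive genes 34 lay above 0, with a median of 0.33, where 47.8% of all tested genes lay above 0 with a median of -0.03. In replicate 1 the median was -0.03 and in replicate 2 it was 0.60. The 20S core was positive in both: all 7 alpha subunits (medians 0.48 and 0.55) and all 7 beta subunits (medians 0.75 and 0.43), although Psmb1, a structural subunit, stood only just above 0 in replicate 2. The 19S particle was not: the 6 ATPases had medians of -0.29 in replicate 1 and 0.86 in replicate 2, and the 11 other subunits -0.27 and 0.68. Only 1 of these 17 genes, Psmc5, was positive in both. The difference between core and 19S particle was not tested. Psmd1, the large scaffold of the 19S base, illustrates it with 11.11 in WT and 10.66 in STAT3-deficient cells in replicate 1, but 10.08 and 11.03 in replicate 2. The replicate 2 differences rest on STAT3-deficient IL-6 replicate 2, which had the lowest Actb 5' minus 3' difference of all 16 arrays (-1.71). The part of RNA quality in these medians was not tested.

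**Figure D3:**
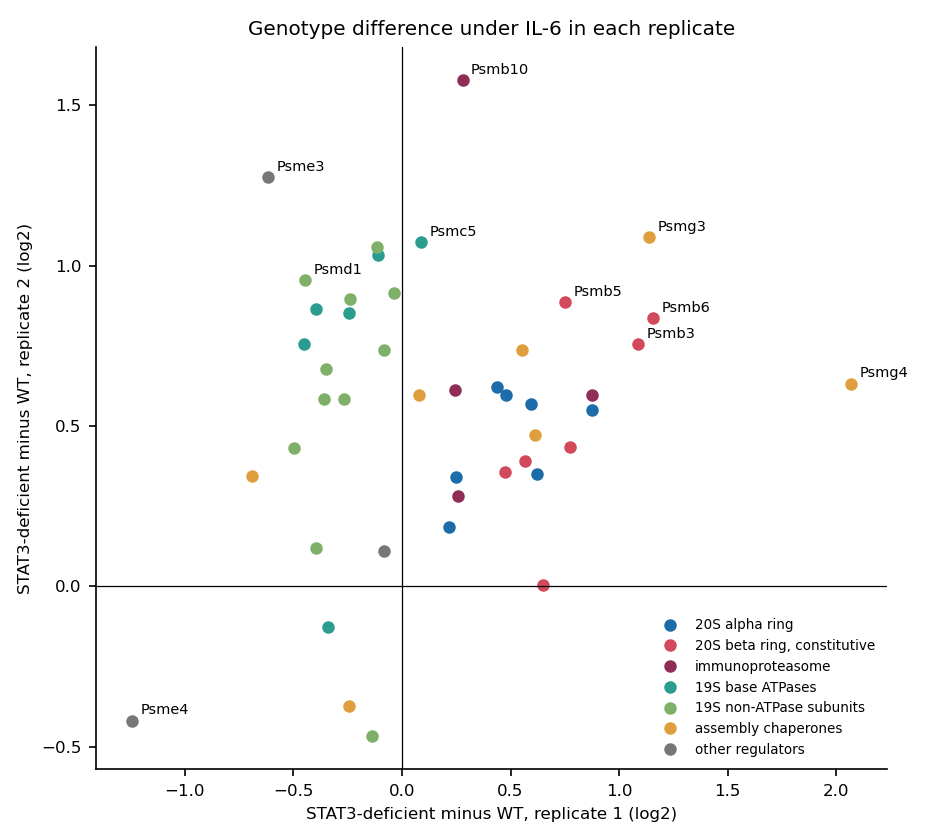
STAT3-deficient minus WT log2 difference under IL-6 for 45 tested proteasome genes, replicate 1 on the x axis and replicate 2 on the y axis, coloured by part of the complex. All 14 alpha and beta subunits of the core lie above 0 on both axes, as does Psmc5 alone of the 17 genes of the 19S particle.

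Without WT IL-6 replicate 1, the array that stood apart, the medians were 0.68 for the ATPases, 0.51 for the other 19S subunits, 0.39 for the alpha ring and 0.45 for the beta ring. Without WT IL-6 replicate 2 they were -0.10, -0.19, 0.69 and 0.76. The proliferation list (22 cell cycle genes) split between replicates in the same comparison, with medians of -0.38 and 0.61, and the 8 subunits of the chaperonin TRiC with -0.28 and 0.42. The part of either in the result was not tested.

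In WT cells IL-6 was next set against medium. All 7 beta subunits lay below 0, with a median of -0.90 (-1.13 in replicate 1 and -0.46 in replicate 2), and 36 of the 41 constitutive genes did, with a median of -0.37 where all genes had a median of 0.00 to 2 decimals. No constitutive gene passed with limma (8 of all genes called lower, 0.0615%). At an unadjusted p under 0.05 there were 10 lower (6.00% of all genes), 5 of the beta ring, 4 chaperones and 1 of the alpha ring, and 1 higher (6.63%). Psmb6 was at 11.93 and 11.68 in medium and at 10.57 and 11.13 under IL-6, a difference of -0.96 (SE 0.23, limma adjusted p = 0.115). With the replicate block Psmg2, a chaperone of alpha ring assembly, was called at -0.82 (limma adjusted p = 0.0472), against 61 genes called lower (0.469%). Without WT IL-6 replicate 1, the array that stood apart, the beta ring had a median of -0.44, with 6 of 7 below 0. Without WT IL-6 replicate 2 its median was -0.81, with all 7 below 0.

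In STAT3-deficient cells the values lay closer to those of medium. The 7 beta subunits had a median of -0.11 against medium and the 41 constitutive genes of -0.06, where the median of all genes was -0.08. Psmb6 lay at 12.05 and 11.77 in medium and at 11.72 and 11.97 under IL-6, overlapping ranges. None of the constitutive genes passed with limma, as none of all genes did in either direction (0% called lower), and none reached an unadjusted p under 0.05 (1.33%). The difference between the genotypes in the response to IL-6 was tested as an interaction, which no constitutive gene passed with limma (0.0231% of all genes). Its median over the 7 beta subunits was 0.71 (0.71 in replicate 1 and 0.67 in replicate 2), with all 7 above 0. Without WT IL-6 replicate 1 that median was 0.53, with 5 of the 7 above 0. Over the 41 constitutive genes the median was 0.31 (-0.08 and 0.58). It was 0.37 without WT IL-6 replicate 1 and 0.02 without WT IL-6 replicate 2. In the full fit 5 of the 41 constitutive genes had an unadjusted p under 0.05, all of them positive, as had 269 of 13007 genes in that direction (2.07%). For Psmb6 it was 0.90 (1.04 and 0.75 by replicate, SE 0.33, limma adjusted p = 0.538) and for Psmb3 1.07 (0.95 and 1.18, SE 0.33, limma adjusted p = 0.466). The comparison within IL-6 and the interaction share the IL-6 arrays, and all comparisons against medium share the medium arrays of their genotype, so that these values are not independent.

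Under TGFb the values of most constitutive genes lay below those in medium. Averaged over the genotypes, 37 of the 41 lay below 0 against medium, with a median of -0.44 (-0.35 in replicate 1 and -0.42 in replicate 2), where the median of all genes was 0.00. Psmg1, the chaperone that pairs with Psmg2 to assemble the alpha ring, had 11.18 and 11.25 in WT medium cultures and 11.33 and 11.30 in STAT3-deficient ones. With TGFb it had 10.62 and 10.57 in WT cultures and 10.45 and 10.72 in STAT3-deficient ones, all below every medium array. It fell by 0.67 (SE 0.15, limma adjusted p = 0.0283, n = 4 against 4), by 0.72 in replicate 1 and 0.62 in replicate 2. Psmg2 fell by 0.72 (SE 0.16, limma adjusted p = 0.0283), from 10.87, 10.62, 10.82 and 10.63 in medium to 10.26, 9.81, 9.92 and 10.07 under TGFb, again without overlap. Psmc1, an ATPase of the 19S base, fell by 0.76 (SE 0.20, limma adjusted p = 0.048), from 11.04, 10.67, 11.08 and 10.80 to 10.35, 9.98, 10.13 and 10.08. These 3 were the constitutive genes called, against 303 of 13007 genes called lower (2.33%), and Psmc3ip fell too, by 0.79 (limma adjusted p = 0.0273).

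Lower values were found in each part of the complex. Of the 7 chaperones 4 had an unadjusted p under 0.05, of the 6 ATPases 4, of the 11 other 19S subunits 4, of the 7 alpha and of the 7 beta subunits 3 each, all of them lower. Together with Psmf1, the inhibitor of the core, this made 19 of 41 constitutive genes lower at that level, against 11.3% of all genes, and 1 higher (10.1%), Psme4. The 4 TGFb arrays lay below the 4 medium arrays in 20 of the 41, a pattern shown by 10.3% of all genes. Psmd7, a partner of the deubiquitinase Psmd14, changed by -0.89 (SE 0.36), and Psmc5, an ATPase, by -0.75 (SE 0.25), with limma adjusted p-values of 0.173 and 0.109. The plot of TGFb changes by member shows the called genes beside the other members.

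**Figure D4:**
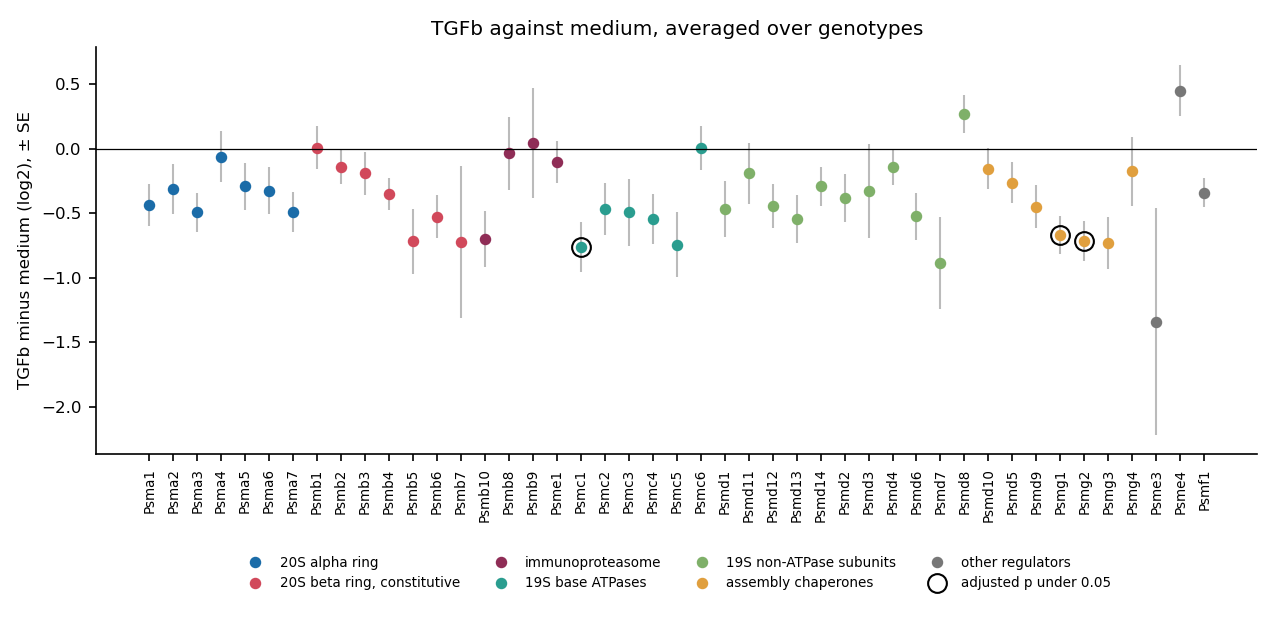
Change in log2 intensity from medium to TGFb, averaged over genotypes (y axis, bars are 1 SE), for 45 tested proteasome genes (x axis, coloured by part of the complex); rings mark an adjusted p under 0.05. Psmc1, Psmg1 and Psmg2 are ringed, and Psme3 has the widest bar. Of the constitutive genes Psme4 and Psmd8 lie above 0, as do Psmb1 and Psmc6, each by 0.01.

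With the replicate block 10 of the 41 constitutive genes were called, all lower, against 6.08% of all genes: Psma3, Psmb5, Psmb7, Psmc1, Psmc5, Psmd7, Psme3, Psmg1, Psmg2 and Psmg3. Their changes ran from -0.50 (Psma3) to -1.34 (Psme3). Without the STAT3-deficient replicate 1 arrays under TGFb and under IL-6 with TGFb, 0 were called and the median over the constitutive genes was -0.35. Leaving out single arrays gave 0 to 3 calls. Of the other probe sets of the members called without the block, 2 had the same sign. They were for Psmc3ip, at -1.07 (limma adjusted p = 0.0798), and for Psmg2, which fell by 0.92 (limma adjusted p = 0.0245). Another Psmg2 probe set had the opposite sign, with 0.18 (limma adjusted p = 0.797). In that fit a second Psme3 probe set passed at -1.01 (limma adjusted p = 0.0362). Other probe sets of Psma3, Psmd7 and Psmg3 changed by -0.43, -0.19 and -0.51 and did not pass. All 22 genes of the proliferation list lay below 0 in this comparison, with a median of -0.28, and 7 of 8 TRiC genes did, with a median of -0.31. Their part in the result was not tested. Within the genotypes 0 constitutive genes passed with limma, against 0.0231% of all genes called lower in WT and 0.0538% in STAT3-deficient cells. At an unadjusted p under 0.05 there were 4 lower in WT (5.43% of all genes) and 13 in STAT3-deficient cells (6.66%). The median over the constitutive genes in STAT3-deficient cells was -0.44 in replicate 1 and -0.37 in replicate 2.

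The mixture of IL-6 with TGFb was compared with medium in the same way. Averaged over genotypes 40 of the 41 constitutive genes lay below 0 against medium, with a median of -0.26 (all genes -0.04). Psmg1 fell by 0.62 (SE 0.15, limma adjusted p = 0.0395), from the medium values above to 10.45 and 10.54 in WT cultures and 10.68 and 10.91 in STAT3-deficient ones, without overlap. It was the only constitutive gene called, against 187 of all genes called lower (1.44%). At an unadjusted p under 0.05 there were 9 lower, against 1345 of all genes (10.3%). Psmg1 lost the call, with 0 left, when any of the 8 arrays was left out. Psmc3ip fell by 0.81 (SE 0.17, limma adjusted p = 0.0239). The replicate block added Psmg2 at -0.45 and Psmf1 at -0.41 (3.55% of all genes called lower). In WT cells alone 38 of 41 lay below 0 (median -0.33) and 0 passed with limma (0.853% of all genes called lower), 6 having an unadjusted p under 0.05, all lower (7.94%). The replicate block called Psmg1 there at -0.72 (limma adjusted p = 0.0341), against 2.09% of all genes called lower. In STAT3-deficient cells 37 lay below 0 (median -0.25), 0 passed with limma (0.00769% called lower) and 1 was lower at an unadjusted p under 0.05 (2.98%). Cdk1, the mitotic kinase, was called in the proliferation list at -1.08 in WT cells and -0.71 averaged over genotypes. Under this mixture 34 of 41 constitutive genes lay higher in STAT3-deficient than in WT cells, with a median of 0.16. None was called with limma (0.208% of all genes called higher) or had an unadjusted p under 0.05 (3.47% higher), and Psmb6, at 11.15 and 11.26 against 11.56 and 11.58, differed by 0.37 (SE 0.23, limma adjusted p = 0.684).

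The immunoproteasome genes were compared between the genotypes next. Under IL-6 with TGFb all 4 were higher on both STAT3-deficient arrays than on both WT arrays, with a median difference of 0.79 (0.80 in replicate 1 and 0.81 in replicate 2), while none passed the test over all genes. Psmb9, which replaces Psmb6, lay at 11.85 and 10.81 in WT against 12.70 and 12.42 in STAT3-deficient cells, a difference of 1.23 (SE 0.60, 2.35-fold, limma adjusted p = 0.541). Psmb8, which replaces Psmb5, lay at 12.07 and 11.67 against 12.99 and 12.57 (0.91, SE 0.40, limma adjusted p = 0.469). Psmb10, which replaces Psmb7, lay at 10.12 and 10.26 against 10.86 and 10.87 (0.68, SE 0.31, limma adjusted p = 0.494). Psme1, the cap subunit, lay at 12.66 and 12.37 against 13.08 and 13.09 (0.57, SE 0.23, limma adjusted p = 0.396). The groups did not overlap for any of the 4, as for 24.5% of all genes in that direction, and 3 had an unadjusted p under 0.05 (3.47%). Without STAT3-deficient IL-6 with TGFb replicate 1 the median was 0.69. The 14 measured genes of MHC class I antigen processing all lay above 0 too, with a median of 0.40, the 22 proliferation genes above 0 with 0.47, and 12 of 18 interferon response genes with a median of 0.14; none of these 3 lists held a called gene.

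Ifng, which encodes interferon gamma, was looked up after these values were seen. Under IL-6 with TGFb it lay at 5.70 and 5.13 in WT against 9.83 and 10.97 in STAT3-deficient cells. On STAT3-deficient TGFb replicate 1 Ifng was at 4.39 with Psmb9 at 10.40, for both genes the lowest value of all 16 arrays. On WT TGFb replicate 2 Ifng was at 4.46 with Psmb9 at 12.53. The part of Ifng in the difference was not tested.

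**Figure D5:**
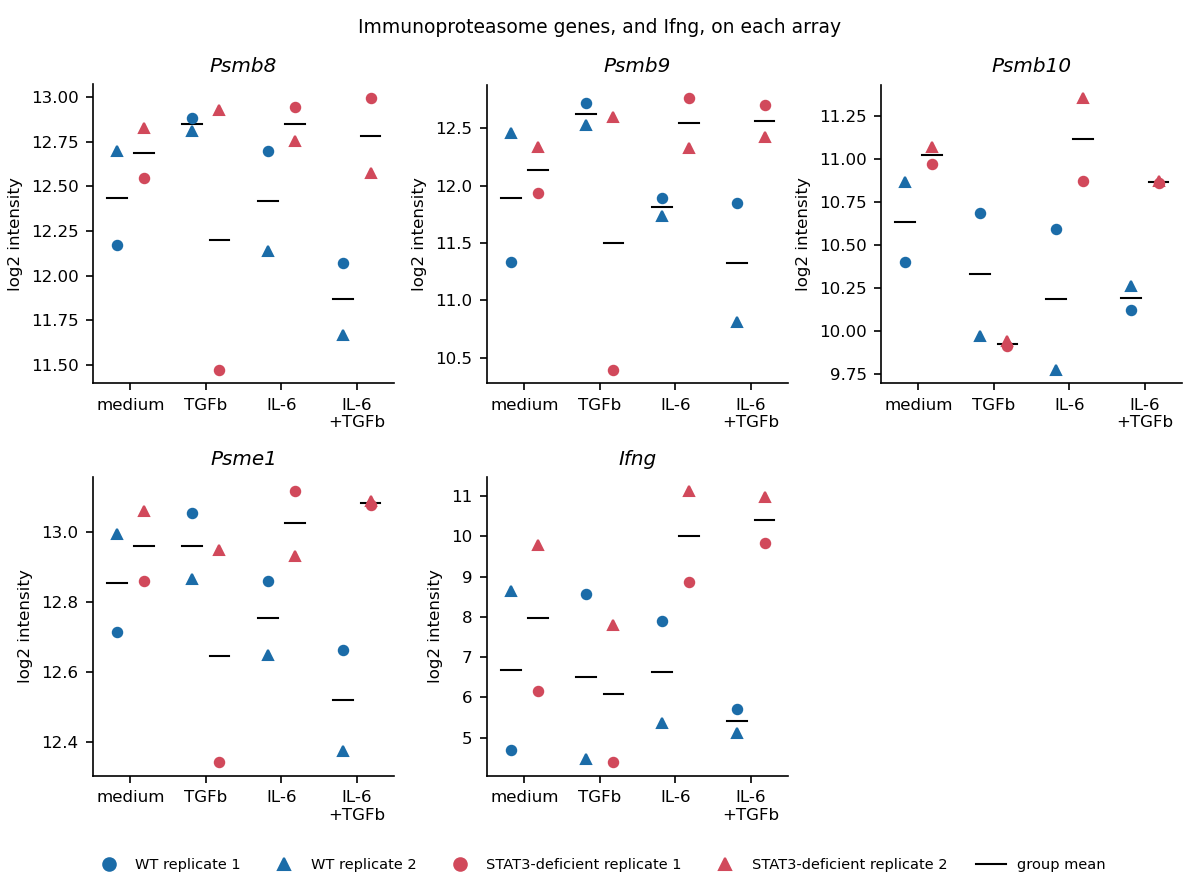
Log2 intensity (y axis, own scale in each panel) of Psmb8, Psmb9, Psmb10, Psme1 and Ifng by condition (x axis) in WT (blue) and STAT3-deficient cells (red), replicate 1 as circles, replicate 2 as triangles, group mean as a line. Under IL-6 with TGFb both red points lie above both blue points in every panel, and the red circle under TGFb is the lowest Psmb8, Psmb9 and Psme1 value.

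Under IL-6 alone the 4 immunoproteasome genes were also higher on both STAT3-deficient arrays, as were 2602 of all 13007 genes, with a median of 0.58 (0.27 and 0.61 by replicate). Psmb10 lay at 10.59 and 9.77 in WT against 10.87 and 11.35 in STAT3-deficient cells (0.93, SE 0.31, limma adjusted p = 0.117), most of it from replicate 2. The differences of Psmb8, Psmb9 and Psme1 there were 0.43, 0.74 and 0.27. Under TGFb the median was -0.53, and it rested on STAT3-deficient TGFb replicate 1: the medians were -1.09 in replicate 1 and 0.08 in replicate 2. That array had Psmb9 at 10.40 and Psmb8 at 11.47, where the other TGFb arrays had 12.53 to 12.72 and 12.81 to 12.93. In medium the median was 0.25, and Psmb10 had 10.40 and 10.87 in WT against 10.97 and 11.07. No immunoproteasome gene was called in any of the 17 comparisons fitted. Against medium in WT cells IL-6 with TGFb gave a median of -0.50, of -0.08 in replicate 1 and -0.82 in replicate 2. TGFb averaged over genotypes gave -0.07, which became 0.19 without the STAT3-deficient replicate 1 arrays under TGFb and under the mixture. Psmb10 differed from medium under TGFb by -0.30 in WT and -1.09 in STAT3-deficient cells (-0.70 averaged, SE 0.22, limma adjusted p = 0.0895).

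The counterparts of these subunits in the constitutive core gave the following differences. Between genotypes in medium Psmb5, Psmb6 and Psmb7 differed by 0.07, 0.10 and -0.23, and under TGFb by 0.15, -0.05 and -0.23. In those 2 conditions no constitutive gene reached an unadjusted p under 0.05, as 0.131% and 0.684% of all genes did, and 0 of all 13007 genes (0%) were called with limma. Averaged over the 4 conditions 36 of 41 constitutive genes lay higher in STAT3-deficient cells, with a median of 0.14 (0.03 in replicate 1 and 0.22 in replicate 2). Without WT IL-6 replicate 2 there were 27 above 0, with a median of 0.12, and 1 called. In the full fit none was called with limma (0.123% of all genes called higher), and 3 had an unadjusted p under 0.05, all higher (5.04% of all genes). Under IL-6 averaged over genotypes Psmb5, Psmb6 and Psmb7 changed from medium by -0.52, -0.51 and -0.81 with SEs of 0.25, 0.16 and 0.59. In replicate 1 these changes were -0.77, -0.84 and -1.28, and in replicate 2 they were -0.27, -0.17 and -0.34. Averaged in this way 0 constitutive genes were called with limma, as 0% of all genes were called lower, 7 having an unadjusted p under 0.05, all lower (4.27%), and without WT IL-6 replicate 2 there was 1 called. For Psmb9 and Psmb8 the same averages were 0.16 and 0.07, while Psmb10 and Psme1 lay below 0. The median of these 4 was 0.03. The interactions of genotype with IL-6 with TGFb and with TGFb called 0 members with limma, against 0.131% and 0% of all genes, and 0 members had an unadjusted p under 0.05, against 3.96% and 0.269%.

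Psme3 and Psmb7 were set apart by the replicate number. Psme3 lay between 7.55 and 9.84 on the replicate 1 arrays and between 9.47 and 10.85 on the replicate 2 arrays, a mean difference of 1.92, and Psmb7 showed 1.30. They were the only 2 of 47 tested members whose means differed by over 1 between replicate numbers, as did 2.28% of all genes. A second Psme3 probe set that passed the level minimum differed by -0.07, so the large difference belonged to the probe set used here. In the genotype comparison under IL-6 without the block, the SEs of Psme3 (1.25) and Psmb7 (0.83) were the widest of the 47 tested members.

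Genes that work with the proteasome but lie outside the symbol rule were taken from separate lists. Of 14 measured partners such as Pomp, the maturation factor of the core, and Usp14, its deubiquitinase, 1 was called between genotypes under IL-6: Ngly1, the deglycosylase that activates the proteasome gene regulator Nfe2l1, at -1.20 (SE 0.18, limma adjusted p = 0.0123), where 2.73% of all genes were called lower. The list had 6 members above 0 and 8 below, with a median of -0.19, and Pomp itself differed by 0.74 (SE 0.25, limma adjusted p = 0.121). Under TGFb averaged over genotypes 10 of 14 partners lay below 0, with a median of -0.13 and none called. Of 11 measured genes of ubiquitin supply and delivery 9 lay below 0 in that comparison, with a median of -0.20. Nsfl1c, a cofactor of the unfolding ATPase Vcp, was called there at -0.61 (SE 0.14, limma adjusted p = 0.0307), the only called gene of the list where 2.33% of all genes were called lower.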

How the data were processed

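RNA of 16 cultures, 2 for each of 8 groups, was hybridised to Affymetrix mouse expression arrays. Per the submitters' processing notes the values came from RMA, and the authors deposited them as a table of intensities on a linear scale, whole numbers from 6 to 37243, with array medians between 66 and 73. Depth does not apply to arrays; the number of arrays limits the precision. Genes were named through GEO's platform annotation: 34945 of 45101 probe sets carried 1 gene symbol, 932 several and 9160 none, and 34741 were matched by Entrez ID to the reference table. Probe sets with several symbols were not named.

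The log2 of the intensities was taken with no offset, and the brightest single-symbol probe set stood for each gene. A model with 8 group means was fitted with limma 3.58.1 in R 4.3.3 to 13007 genes that reached log2 6 on at least 2 arrays, with 17 comparisons, two-sided, and Benjamini-Hochberg adjustment over all genes within each. Calls were made where that adjusted p was under 0.05. The fit was tested on simulated data. Members and gene lists were chosen with earlier results of these data known. Named were the immunoproteasome genes with their constitutive counterparts, called members, those with the largest ranges or below the minimum, and called genes of the other lists; others were named after their values were seen, as examples.

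Deviations of arrays with the same replicate number correlated in all 28 pairs of groups (0.107 to 0.863, median 0.333), so the numbers were taken to pair the arrays, and the fit with the replicate number as a block is given wherever it changed a call or a count by over 1.5 times. Other alternatives were the block with the Actb 5' minus 3' difference, a further quantile normalization, an offset of 16, no minimum and a minimum of log2 8, the mean of all probe sets of a gene, array weights, the compared arrays alone, and leaving out arrays.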

Additional observations from a re-analysis of the deposited data

How the results depend on the processing

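The count of constitutive proteasome genes called depended on the fit. For STAT3-deficient against WT under IL-6 it was 1, and became 8 with the replicate block, 0 with the block and the Actb difference, 2 with the mean of all probe sets, and 0 with array weights, without the STAT3-deficient replicate 1 arrays under TGFb and under IL-6 with TGFb, and with only the arrays compared; leaving out single arrays gave 0 to 3. For TGFb against medium averaged over genotypes it was 3, and became 10 with the replicate block, 8 with the block and the Actb difference, 1 with the mean of all probe sets, and 0 without those 2 arrays and with only the arrays compared; leaving out single arrays gave 0 to 3. For IL-6 with TGFb against medium averaged over genotypes it was 1, and became 3 with the block, 2 with array weights and 0 without those 2 arrays or any single array; in WT cells alone it was 0, and 1 with the block and with array weights. For IL-6 against medium in WT cells it was 0, 1 with the block and 0 to 4 without single arrays. Leaving out single arrays gave 0 to 1, from 0, for IL-6 averaged over genotypes, the interaction of genotype with IL-6, the genotype difference averaged over conditions, and TGFb in STAT3-deficient cells. The cause was not tested; with an array left out or only the compared arrays fewer samples enter. The count over all 13007 genes changed with the fit as well. With the block, genes called between genotypes under IL-6 went from 73 to 309 higher and from 355 to 1181 lower. Under TGFb averaged over genotypes, those called lower went from 303 to 791. The changes in count given here can therefore not be read as particular to proteasome genes. The replicate block changed no other count of constitutive genes, no count of immunoproteasome genes moved from 0 under any of these fits, and no called gene changed sign. Groups of 2 arrays set the limit of these tests: a difference that missed the threshold was not shown to be absent.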
